A study of Mus musculus with 8 samples.

Results

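Glycogen is the branched glucose polymer that cells hold as a short-term energy store. Its synthesis and breakdown are described here through 8 genes measured in cultured mouse optic nerves, with and without lithium. The genes are Gyg, Ugp2, Gys1, Gbe1, Ppp1r3c, Pygl, Pygb and Pygm. They were taken as a list of symbols, and every probe set of the array that is annotated to a single gene of the list was kept. This gave 15 probe sets for 8 genes, out of 45037 probe sets and 18193 genes in all. The main probe set of a gene is the one with the highest mean log2 signal over the 8 arrays.

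The study asked how lithium acts on the glia of an adult white matter tract, and the arrays compared 4 samples of optic nerve kept with lithium chloride and 4 control samples that received saline. The nerves came from mice aged 35 to 45 days of the strain C57BL/6 per the labels (C57/BL10 in the paper) and spent 3 days in organotypic culture, the treated ones in medium with 20 mM lithium chloride. The labels give 6 nerves per sample, whereas the series description counts 6 mice per group, fewer nerves than 4 samples of 6 would need. Neither source says that samples of a group came from separate animals or cultures, so that a p-value here weighs a difference only against array-to-array spread, part or all of which may be technical. The paper reports that nerves were taken with the retina attached, and that arachnoid and adhering peripheral tissue were cleaned off before culture. The cultured nerve keeps astrocytes, oligodendrocytes, microglia, vessels and what that cleaning leaves of a connective tissue sheath, while its axons are cut off from their targets in the brain. The defining markers of its glia were well measured, with the astrocyte filament gene Gfap at 1266 to 1622 in lithium and 1471 to 1687 in controls, and the myelin gene Mbp at 2028 to 3114 in lithium and 2217 to 2431 in controls.

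In the nervous system glycogen lies mainly in astrocytes, and in the optic nerve its breakdown is known to help axons through a shortage of glucose. Glycogenin primes a chain, UDP-glucose pyrophosphorylase supplies the activated glucose, glycogen synthase lengthens the chain and the branching enzyme branches it. Phosphorylase cuts glucose units off again, in a brain, a muscle and a liver form that are encoded by separate genes. Glycogen synthase is switched off by the kinase GSK3, which lithium inhibits, and it is switched on by protein phosphatase 1, which scaffold proteins such as the product of Ppp1r3c bring to the glycogen particle. These controls act on the proteins, whereas the arrays measured messenger RNA.

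None of the 8 glycogen genes passed an adjusted p of 0.05 (limma, Benjamini-Hochberg over all 45037 probe sets), against 2.05% of all 18193 genes lower and 1.18% higher in lithium. The liver phosphorylase gene Pygl and the scaffold gene Ppp1r3c nevertheless had every lithium array below every control array, with mean differences of -1.84 and -1.11 on the log2 scale. Such a separation was found for 2 of the 8 genes, against 8.92% of all genes with all lithium arrays below and 6.47% with all lithium arrays above. The same 2 genes were the members with an unadjusted p under 0.05, and 12.6% of all genes were lower at that limit. The synthetic enzymes Gyg, Ugp2, Gys1 and Gbe1 and the phosphorylases Pygb and Pygm overlapped between the groups. Over the 8 genes the median log2 fold change was -0.27, against -0.00276 over all genes. It was -0.50 within arrays 1 and 2 of both groups and -0.049 within arrays 3 and 4. The mean was lower in lithium for 5 of the 8 genes, near the share over all genes (9150 of 18193).

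The upstream regions of Ppp1r3c and Pygl are shown because these were the members whose groups did not overlap. Each is the stretch of 250 bases directly before the RefSeq start in the GRCm38.p6 assembly, written along the gene's own strand. Capitals mark 3 motifs, which are the TCF/LEF core CTTTGAT (reverse ATCAAAG), the palindromic E-box CACGTG and the CCAAT box (reverse ATTGG), searched on both strands. The cAMP response element TGACGTCA was searched as well.

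Ppp1r3c, chr19:36736605-36736854, minus strand: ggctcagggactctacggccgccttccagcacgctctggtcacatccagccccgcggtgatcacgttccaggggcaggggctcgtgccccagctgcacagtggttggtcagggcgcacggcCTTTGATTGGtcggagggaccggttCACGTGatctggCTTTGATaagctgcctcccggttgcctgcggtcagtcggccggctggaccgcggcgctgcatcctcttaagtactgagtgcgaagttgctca

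Pygl, chr12:70227684-70227933, minus strand: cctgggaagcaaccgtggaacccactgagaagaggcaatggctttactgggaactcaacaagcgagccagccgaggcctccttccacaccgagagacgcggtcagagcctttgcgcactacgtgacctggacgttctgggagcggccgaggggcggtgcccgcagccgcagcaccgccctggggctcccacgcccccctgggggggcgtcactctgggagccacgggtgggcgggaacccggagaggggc

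The Ppp1r3c region held 2 TCF/LEF cores, whose first bases lie 129 and 92 bases before the start, 1 E-box at 104 and 1 CCAAT box at 124 that overlaps the first of the cores. The Pygl region held none of the 4 motifs. Among 32851 regions of 250 bases before RefSeq starts, 3.21% held at least 1 TCF/LEF core and 0.0822% held 2 or more, while 6.02% held an E-box, 33.8% a CCAAT box and 1.55% a cAMP response element. Of the 9 such regions of the 8 genes, the TCF/LEF core and the E-box each occurred in 1, the CCAAT box in 3 and the cAMP response element in 0. A match is a string of letters and not a shown binding site.

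Pygl encodes the liver form of phosphorylase, on chromosome 12 from 70190815 to 70227683. Its 1 probe set had signals of 20.5, 21.1, 50.5 and 49.0 on lithium arrays 1 to 4, against 125, 89.2, 110 and 143 on control arrays 1 to 4. The highest lithium value was thus well under the lowest control value, and lithium arrays 1 and 2 were lower than lithium arrays 3 and 4. The means were 35.3 ± 16.8 in lithium and 117 ± 22.7 in controls (SD, n = 4 each), a 3.58-fold lower level in lithium (-1.84 on the log2 scale, 95% interval -2.71 to -0.97, adjusted p = 0.0569 from limma).

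Ppp1r3c encodes the scaffold also called protein targeting to glycogen, which holds phosphatase 1 close to glycogen synthase and phosphorylase, and lies on chromosome 19 from 36731731 to 36736604. Its main probe set had signals of 62.5, 73.0, 133 and 140 on lithium arrays 1 to 4, against 172, 190, 221 and 259 on control arrays 1 to 4. Here too the groups did not overlap, and within each group arrays 1 and 2 had the lowest signals. The means were 102 ± 40.1 in lithium and 210 ± 38.3 in controls (SD, n = 4 each), 2.16-fold lower in lithium (-1.11 on the log2 scale, 95% interval -1.84 to -0.39, adjusted p = 0.117 from limma). The other Ppp1r3c probe set was dim, with 4.32 to 7.53 in lithium and 7.32 to 10.3 in controls, and its groups overlapped at their edges (log2 fold change -0.52, adjusted p = 0.240).

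Lithium array 1, the lowest for both genes, also had the largest 3′ minus 5′ difference of the Gapdh control probe sets, a measure of RNA integrity. On the log2 scale this difference was 0.53, 0.43, 0.42 and 0.35 on lithium arrays 1 to 4. On control arrays 1 to 4 it was 0.40, 0.38, 0.37 and 0.34. It thus fell with the array number in both groups and was larger in lithium at every number. Without lithium array 1 the log2 fold changes were -1.62 for Pygl and -0.91 for Ppp1r3c. The part of RNA integrity in the remaining difference was not tested.

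**Figure D1:**
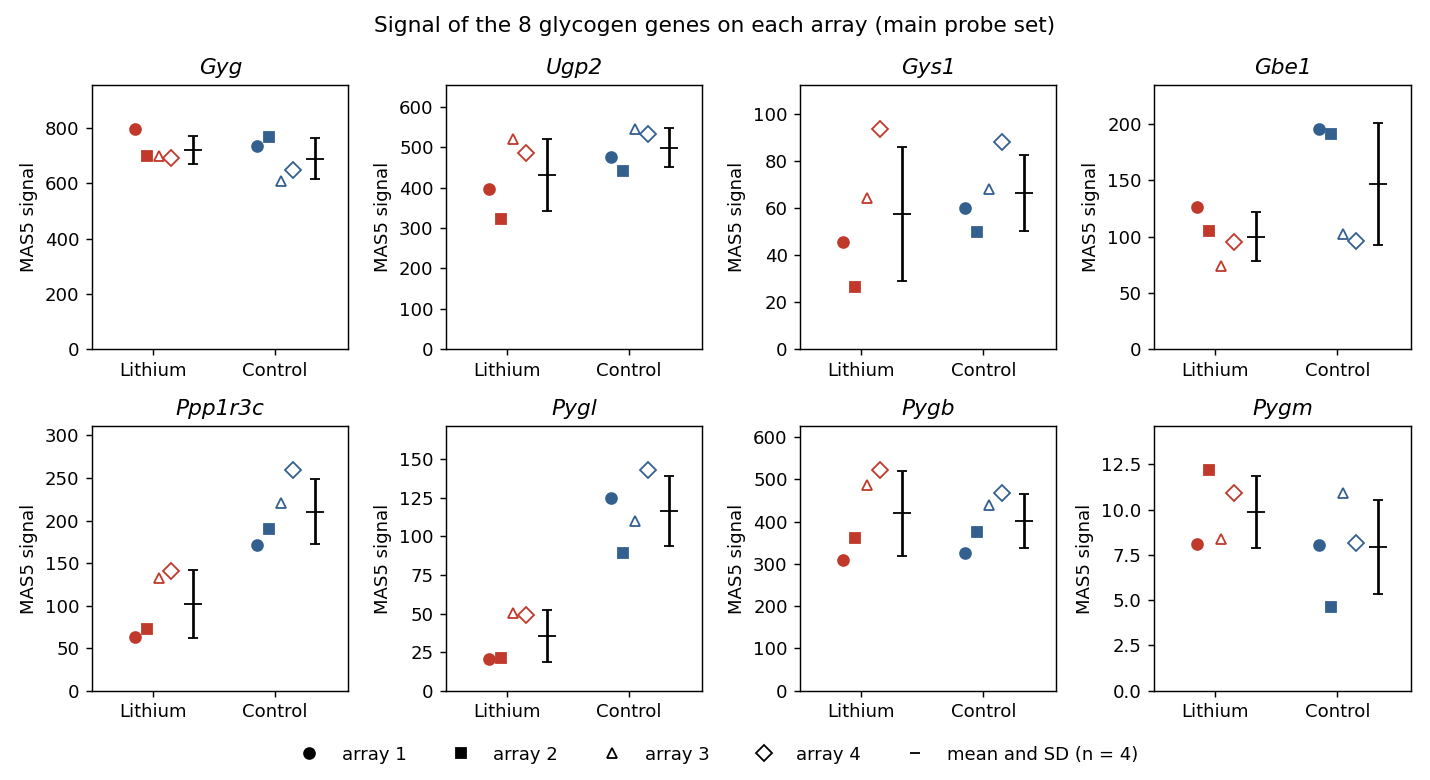
MAS5 signal (linear scale, from 0) of the main probe set of each glycogen gene on 4 lithium arrays (red, left) and 4 control arrays (blue, right), with filled marks for arrays 1 and 2, open marks for arrays 3 and 4, and the mean and SD in black. In Pygl and Ppp1r3c every lithium mark lies below every control mark, with Pygl at 20.5 to 50.5 in lithium and 89.2 to 143 in controls, and the other 6 genes overlap.

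Arrays 1 and 2 of either group differed from arrays 3 and 4 in several of these genes, and the labels do not say what the numbers stand for. The lithium difference was therefore also taken inside each set. For Pygl it was -2.34 within arrays 1 and 2 and -1.33 within arrays 3 and 4, and for Ppp1r3c -1.42 and -0.81, so that both genes had lower means in lithium in both sets. These fits compare 2 arrays with 2, and neither gene passed in either of them (adjusted p of 0.132 to 0.161 from limma, with 0 probe sets of the whole array passing). With a term for arrays 1 and 2 against arrays 3 and 4 in the fit over all 8 arrays, Pygl (adjusted p = 0.0173) and Ppp1r3c (adjusted p = 0.0177) passed as lower, 2 of 8 genes, against 5.71% of all genes lower and 3.00% higher in the same fit. With the replicate number as a block neither passed (adjusted p = 0.085 for Pygl and 0.0813 for Ppp1r3c), in a fit that called 0.396% of all genes in either direction.

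**Figure D2:**
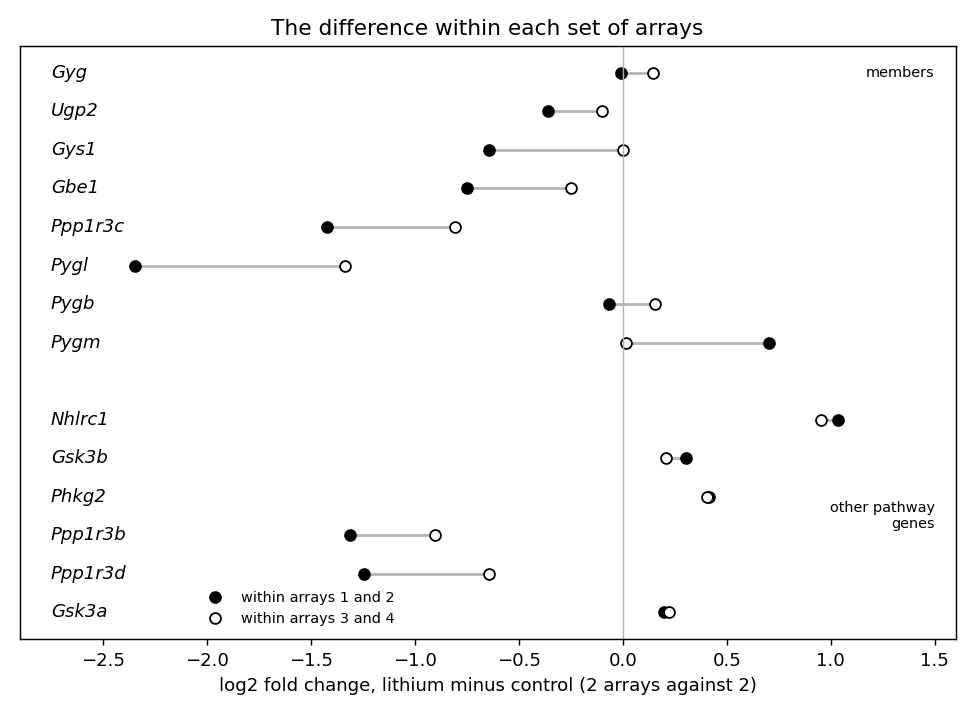
Log2 fold change, lithium minus control, within arrays 1 and 2 (filled) and within arrays 3 and 4 (open), for the 8 glycogen genes above and 6 further genes of glycogen control below. Pygl (-2.34 and -1.33) and Ppp1r3c (-1.42 and -0.81) lie to the left of 0 in both sets, while Gys1 (-0.64 and 0.00) meets 0 within arrays 3 and 4.

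Markers of fibroblasts moved with these 2 genes. The summed signal of 7 fibroblast markers (Col1a1, Col1a2, Col3a1, Dcn, Lum, Pdgfrb and Fn1) was 809, 1284, 2279 and 2401 on lithium arrays 1 to 4, against 5177, 3885, 5554 and 6311 on control arrays 1 to 4. All 7 had lower means in lithium and 3 of them passed limma's adjusted p, with a median log2 fold change of -1.93, or -2.18 within arrays 1 and 2 and -1.39 within arrays 3 and 4. With the term for the array sets 6 of the 7 passed as lower, against 5.71% of all genes. Under the replicate block 0 of the 7 passed (adjusted p of 0.055 to 0.125 for Col3a1, Lum and Pdgfrb, the 3 called without it). The lithium arrays had the same split in this sum as Pygl, with arrays 1 and 2 lowest, and none of the markers was at 0. The part of these cells in the lower Pygl and Ppp1r3c signals was not tested, and in bulk tissue fewer cells of a type and less RNA per cell cannot be told apart. The summed signal of 12 astrocyte markers ranged from 8795 to 10665 in lithium and from 9640 to 10053 in controls, and 0 of the 12 passed (2 lower at an unadjusted p under 0.05, median log2 fold change -0.16). Of the other cell types, 7 endothelial markers summed to 1577 to 1658 in lithium and 1857 to 2123 in controls without overlap, with 0 of 7 passing (2 lower at an unadjusted p under 0.05, median log2 fold change -0.22). Most of that sum was Slc2a1, which overlapped between the groups (1295 to 1485 in lithium and 1355 to 1671 in controls). Flt1 (37.0 to 145 in lithium and 254 to 368 in controls) and Cdh5 did not overlap, and the other endothelial markers did. The 8 microglial markers summed to 2455 to 3341 in lithium and 3042 to 4153 in controls, and 1 of them, Tyrobp, was lower by the adjusted p (0.0374), though not with the block (0.0863). With the term for the array sets 2 of 7 endothelial, 2 of 8 microglial, 1 of 12 astrocyte and 0 of 9 oligodendrocyte markers passed as lower. Of 6 markers of oligodendrocyte precursors 1 passed as lower in that fit (Pdgfra, log2 fold change -1.52) and 1 as higher (Olig2, 0.77). Lower signals were thus not confined to fibroblast markers.

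**Figure D3:**
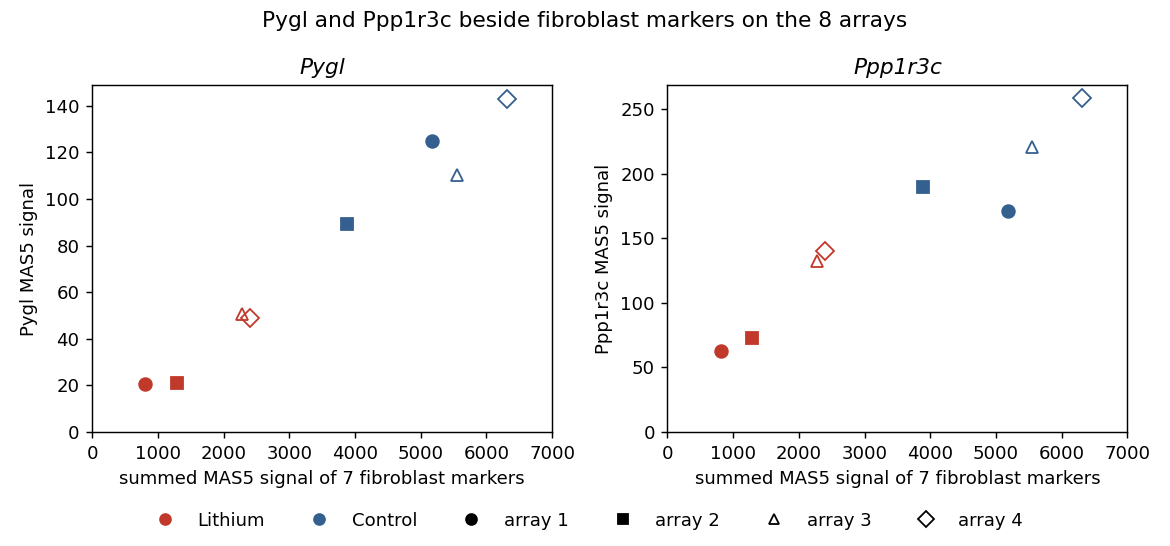
Signal of Pygl (left panel) and Ppp1r3c (right panel) on each array against the summed signal of 7 fibroblast markers on the same array, all as linear MAS5 signals from 0, lithium in red and control in blue. The 4 lithium arrays lie at 809 to 2401 on the marker axis and the 4 control arrays at 3885 to 6311, so that the groups are apart on both axes.

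Likeness of pattern over the 8 arrays was sought among just over 5060 genes with a mean signal of at least 200. The genes whose signals followed Pygl most closely were Leprot (Pearson r = 0.995), Bicc1 (r = 0.991) and H6pd (r = 0.990). For Ppp1r3c they were Tmem106c (r = 0.990), Col8a1 (r = 0.989) and H6pd (r = 0.988). H6pd, the hexose-6-phosphate dehydrogenase of the endoplasmic reticulum, was in both lists and had a signal of 182 ± 72.5 in lithium and 383 ± 56.3 in controls (SD, n = 4 each; adjusted p = 0.105 from limma). Col8a1, a short-chain collagen, averaged 100.2 ± 59.6 in lithium and 325 ± 89.1 in controls (SD, n = 4 each; adjusted p = 0.100). These correlations describe 8 points in 2 groups that differ in level, and Bicc1 was the one of these 5 genes that passed limma (adjusted p = 0.0333).

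The synthetic enzymes differed less. Gys1, the glycogen synthase of muscle and brain that GSK3 phosphorylates, lies on chromosome 7 from 45434839 to 45456617. Its main probe set had signals of 45.9, 26.7, 64.2 and 93.7 on lithium arrays 1 to 4, against 59.9, 49.7, 68.1 and 88.0 on control arrays 1 to 4. The lithium values bracket the control values on both sides, with the lowest on lithium array 2 and the highest on lithium array 4 (log2 fold change -0.32, 95% interval -1.25 to 0.61, adjusted p = 0.745 from limma). Within each group the spread followed the array numbers, as lithium arrays 3 and 4 exceeded lithium arrays 1 and 2 by 1.15 and control arrays 3 and 4 exceeded control arrays 1 and 2 by 0.50 on the log2 scale. The difference was -0.64 within arrays 1 and 2 and 0.00 within arrays 3 and 4. A dimmer Gys1 probe set, at 6.31 to 19.7 in lithium and 14.4 to 21.1 in controls, gave -0.70 (adjusted p = 0.373).

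Gbe1, the branching enzyme, lies on chromosome 16 from 70313949 to 70569720 and differed between the array sets. Its signals were 126, 105, 73.7 and 94.8 on lithium arrays 1 to 4, against 195, 191, 103 and 96.4 on control arrays 1 to 4. Control arrays 1 and 2 thus stood at nearly the same level and far above control arrays 3 and 4, which lay among the lithium values. On the log2 scale control arrays 3 and 4 were lower than control arrays 1 and 2 by a difference of -0.96, and the corresponding lithium difference was -0.46. The lithium minus control difference was -0.50 over all arrays (95% interval -1.21 to 0.22, adjusted p = 0.462 from limma), -0.75 within arrays 1 and 2 and -0.25 within arrays 3 and 4. In this gene arrays 1 and 2 had the higher mean log2 signal in both groups, the reverse of Pygl, Ppp1r3c and Gys1. For Pygl the control arrays did not split cleanly, with 125 on control array 1 and 110 on control array 3.

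Ugp2, which makes the UDP-glucose that glycogen synthase consumes, lies on chromosome 11 from 21321126 to 21371267 and had 5 probe sets. The main one had signals of 397, 322, 520 and 485 on lithium arrays 1 to 4, against 476, 441, 545 and 532 on control arrays 1 to 4. Lithium arrays 1 and 2 were below all control arrays and lithium arrays 3 and 4 lay among them (log2 fold change -0.23, 95% interval -0.62 to 0.16, adjusted p = 0.551 from limma), and without lithium array 2 the difference was -0.097. The other 4 probe sets included 3 whose lithium mean was the lower one, at log2 fold changes of -0.25, -0.22 and -0.13. The remaining one had a log2 fold change of 0.03, with a 95% interval of -0.12 to 0.18, the narrowest of the 15 probe sets. The adjusted p over the 5 probe sets was 0.314 to 0.854.

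Gyg encodes glycogenin, the protein on which a glycogen chain is begun, and lies on chromosome 3 from 20122083 to 20155117. Its main probe set had signals of 795, 698, 698 and 690 on lithium arrays 1 to 4, against 732, 766, 608 and 649 on control arrays 1 to 4. The lithium values lay close together except for the higher array 1, and both groups covered much the same range. Lithium array 1 also had the lowest median signal of the 8 arrays, 12.3 against 15.2 to 16.5 on the other lithium arrays and 14.8 to 17.5 on control arrays. The log2 fold change of Gyg was 0.07 (95% interval -0.16 to 0.29, adjusted p = 0.779 from limma), with 0.020 left without lithium array 1 and 0.010 without control array 3, and the second Gyg probe set gave 0.10 (95% interval -0.30 to 0.50, adjusted p = 0.824).

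The remaining phosphorylases did not show the separation of Pygl. Pygb, the brain form that astrocytes carry, lies on chromosome 2 from 150786796 to 150831748. Its signals were 309, 361, 486 and 522 on lithium arrays 1 to 4, against 326, 376, 439 and 467 on control arrays 1 to 4. The order of the arrays was the same in both groups, arrays 1 and 2 below arrays 3 and 4, by 0.59 in lithium and 0.37 in controls on the log2 scale. The log2 fold change was 0.04 (standard error 0.20, 95% interval -0.44 to 0.52, adjusted p = 0.969 from limma), and with the term for the array sets its standard error was 0.091.

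Pygm, the muscle form, lies on chromosome 19 from 6384408 to 6398464 and was dim. Its signals were 8.11, 12.2, 8.36 and 10.9 on lithium arrays 1 to 4, against 8.06, 4.62, 10.9 and 8.19 on control arrays 1 to 4. All 8 lay above the highest signal that any of 27 bacterial poly-A control probe sets reached on the same array, which was 2.13 to 5.64. The groups overlapped, with the lowest value on control array 2 and the highest on lithium array 2 (log2 fold change 0.36, 95% interval -0.30 to 1.02, adjusted p = 0.588 from limma). Lithium array 2 also stood apart in 12 markers of skeletal muscle, with a summed signal of 820 against 85.3 to 130 on the other lithium arrays and 84.6 to 180 on control arrays, and without it the log2 fold change of Pygm was 0.25. It was 0.12 without control array 2, the lowest one, and also 0.12 when 16 was added before the log. The part of muscle RNA in the Pygm signal was not tested beyond that.

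**Figure D4:**
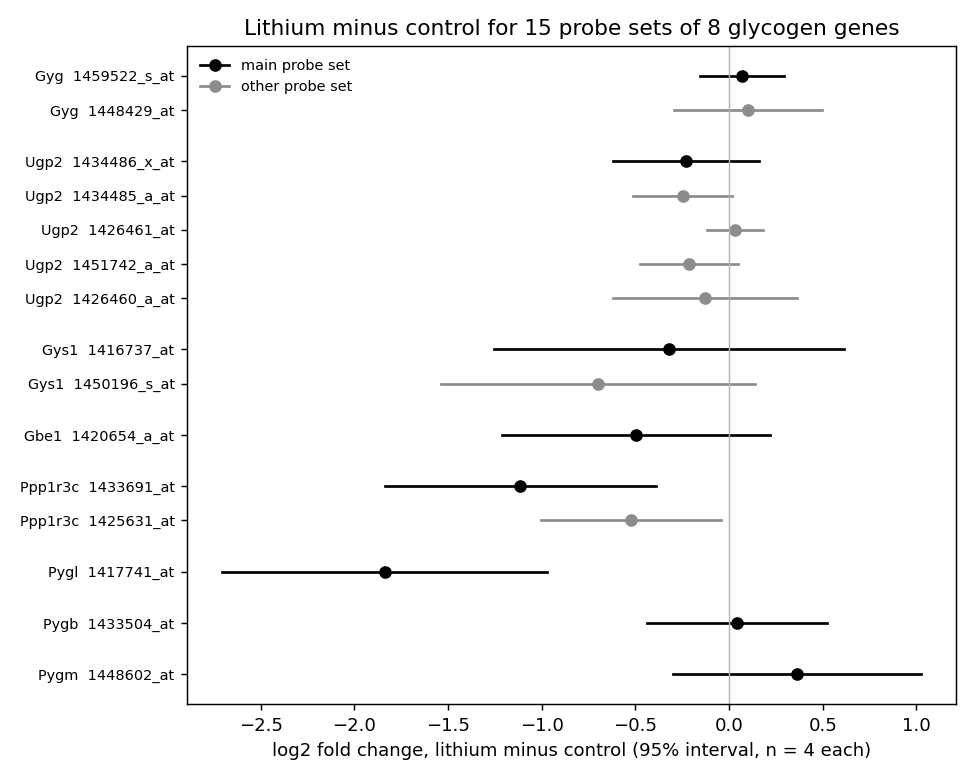
Difference between lithium and control means on the log2 scale for all 15 probe sets of the 8 glycogen genes (4 arrays per group), with 95% intervals from limma that are not adjusted for the number of probe sets. The main probe set of each gene is black and the others grey, and the intervals of Pygl and of both Ppp1r3c probe sets lie wholly below 0.

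A further list covers other genes of glycogen handling, of which 24 were measured. Of the 24, 1 rose, 0 fell and 23 did not pass limma's adjusted p of 0.05 (2 higher and 4 lower at an unadjusted p under 0.05), and the median log2 fold change was -0.11. Over all genes 1.18% were higher and 2.05% lower by the adjusted p. At the unadjusted limit 1707 of all 18193 genes were higher and 12.6% were lower, and the counts of the 24 genes at that limit lie near these shares. A single called gene of 24 is too few to set against 1.18%. The gene that rose was Nhlrc1, which encodes malin, a ubiquitin ligase known from Lafora disease that in mammalian cells marks glycogen scaffolds, the product of Ppp1r3c among them, for degradation. Its signals were 131, 129, 139 and 103 on lithium arrays 1 to 4, against 55.9, 71.8, 58.4 and 65.7 on control arrays 1 to 4. All lithium arrays lay above all control arrays, and the difference was alike in both array sets, 1.04 within arrays 1 and 2 and 0.95 within arrays 3 and 4. The means were 126 ± 15.5 in lithium and 63.0 ± 7.25 in controls (SD, n = 4 each), a difference of 0.99 ± 0.12 (standard error) on the log2 scale with an adjusted p of 0.0201 from limma. Nhlrc1 did not pass with the replicate number as a block (adjusted p = 0.0775), nor without lithium array 1 (0.0523) or control arrays 1 (0.0566), 3 (0.0597) or 4 (0.0586).

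Ppp1r3c belongs to a family of scaffolds that tie phosphatase 1 to glycogen, and a pair of its relatives had the same separation of the arrays. Ppp1r3b, best known as the scaffold of liver, had signals of 65.8, 46.5, 88.0 and 106 on lithium arrays 1 to 4, against 154, 122, 168 and 193 on control arrays 1 to 4. Its log2 fold change was -1.11 (adjusted p = 0.0964 from limma), and the 2 sets gave -1.31 (arrays 1 and 2) and -0.90 (arrays 3 and 4). With the term for the array sets Ppp1r3b passed (adjusted p = 0.0235), but under the replicate block it did not (adjusted p = 0.0627). The dim Ppp1r3d, at 5.86 to 11.6 in lithium and 12.9 to 22.3 in controls, gave -0.94 (adjusted p = 0.133), or -0.39 when 16 was added before the log. The scaffold genes Ppp1r3e, Ppp1r3f and Ppp1r3g overlapped between the groups, with log2 fold changes of -0.08, 0.14 and -0.57, and the muscle scaffold Ppp1r3a lay under the poly-A control limit on every array. The catalytic subunits of phosphatase 1, Ppp1ca, Ppp1cb and Ppp1cc, had log2 fold changes of -0.01, -0.14 and -0.00499.

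Phosphorylase kinase, which switches phosphorylase on, had 1 subunit gene without overlap. Phkg2, a catalytic subunit, had signals of 317, 246, 293 and 261 on lithium arrays 1 to 4, against 210, 210, 197 and 221 on control arrays 1 to 4. All lithium values were higher, by 0.41 on the log2 scale within either set of arrays, and the adjusted p was 0.0782 from limma. The other subunit genes overlapped between the groups, with log2 fold changes of -0.49 for the catalytic Phkg1, -0.14 for Phkb, -0.10 for Phka1 and 0.056 for Phka2. So did Epm2a, which encodes the glycogen phosphatase laforin that works with malin, at 0.016, and Gaa, the lysosomal enzyme that breaks glycogen down, at -0.13. The liver synthase gene Gys2 had a log2 fold change of -0.11 and exceeded the poly-A controls on 2 of 8 arrays. In all, 2 of the 24 genes were higher without overlap (Nhlrc1 and Phkg2) and 3 were lower (Ppp1r3b, Ppp1r3d and the phosphoglucomutase gene Pgm1), beside the shares of 6.47% and 8.92% of all genes. Pgm1, at 457 to 579 in lithium and 588 to 660 in controls (log2 fold change -0.23, adjusted p = 0.267), was singled out after its values were seen. The other phosphoglucomutase genes Pgm2l1 (-0.60) and Pgm2 (-0.30) and the glycogen-binding Stbd1 (-0.23) overlapped between the groups (adjusted p of 0.274 to 0.792). The GSK3 genes overlapped between the groups, with log2 fold changes of 0.21 for Gsk3a (adjusted p = 0.349) and 0.26 for Gsk3b (adjusted p = 0.580). Without lithium array 1 the value of Gsk3b was 0.096, and without lithium array 4 that of Gsk3a was 0.13. When the probe sets of each gene were averaged instead, Gsk3b passed as higher by 0.53 (adjusted p = 0.0276 over all genes).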

How the data were processed

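RNA of 8 samples was converted to cDNA and amplified to biotinylated cRNA, which was hybridised to Affymetrix Mouse Genome arrays, 1 per sample. The authors computed MAS5 signals, naming Agilent GeneSpring GX, and the deposited values are intensities on a linear scale with a trimmed mean of 100 on each array (without its highest and lowest 2%). A baseline transformation that the methods name is not visible in these values. Detection calls were not used here. MAS5 subtracts mismatch signals and leaves dim probe sets noisy, and 14.5% of the values were below 1.

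Of 45101 probe sets, 64 Affymetrix controls were left out. Values under 1 were set to 1 before the log2 scale. The comparison was run in limma (3.58.1, under R 4.3.3; lmFit, eBayes) with two-sided p-values adjusted by Benjamini-Hochberg over 45037 probe sets. A gene was called at an adjusted p under 0.05 on its main probe set. A log2 fold change is the lithium mean less the control mean of log2 values, whereas means and SDs are of linear signals. GEO's platform annotation gave 34958 probe sets 1 symbol, 932 several and 9211 none. The symbols of all 32 glycogen genes measured matched RefSeq, which also gave the sequences and positions (GRCm38.p6).

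The members and lists, and the division into arrays 1 and 2 and arrays 3 and 4, were chosen with earlier results of these data known. The text names every member, the called genes of the further list, the 2 highest and 2 lowest of its other genes, Gsk3a and Gsk3b, and for the 2 members with the lowest p the 3 genes most alike in pattern, and the rest of the further list was added for completeness. Arrays of both groups are numbered 1 to 4. Deviations from the group means correlated at 0.130 to 0.197 between same-numbered arrays, so that the numbers were taken as pairs from the data alone, and at 0.071 to 0.131 between other arrays of the same set. These 2 ranges meet, so that pairs by number are barely set apart from the sets. Across the sets the mean was -0.136. Deviations from a group mean cancel within the group, so that this negative value follows from the positive ones and adds no evidence. On simulated data for 45037 probe sets, 44 of 50 shifts of 2 on the log2 scale were recovered in either direction, with 19 of 50 shifts up by 1 and 21 of 50 down by 1, and 13 of 141 calls were false. The shifts went only to probe sets with a brighter mean log2 signal, and the noise was drawn independently for each array, without sets or pairs. Recovery was therefore not measured for dimmer probe sets, those of Pygl, Gys1 and Pygm among them, nor for arrays with such structure. The number of arrays limits the precision. Figures were drawn with matplotlib 3.10.9.

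Alternatives were quantile normalization, median centring, a restriction to probe sets whose higher group mean reached 200, adding 16 before the log, averaging the probe sets of each gene, leaving out probe sets ending in _x_at or _s_at, array weights, a variance prior that was trended and robust, the replicate block, the term for the array sets, fits within each set and leaving out each array in turn.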

Additional observations from a re-analysis of the deposited data

Results flagged for a closer look

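In 2 of the groups of 4 arrays examined, 1 array stood further from the rest than the 95% limit of Dixon's test, which chance alone gives in about 1 of 20 groups, and 48 groups were examined. The main probe set of Gyg had a signal of 795 on lithium array 1, against 690 to 698 on the other lithium arrays. The summed signal of 12 skeletal muscle markers was 820 on lithium array 2, against 85.3 to 130 on the other lithium arrays. The cause was not tested in either case.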

How the results depend on the processing

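Of 430 values computed for 22 results under 20 alternatives, 371 stayed in direction and on the same side of the threshold (or near the main value), 7 no longer passed, 13 newly passed, 32 moved and 7 changed sign. The number of glycogen genes called lower, 0 of 8, became 1 under quantile normalization, median centring, a trended and robust variance, the addition of 16 and averaged probe sets (Pygl, adjusted p of 0.0251 to 0.0410), and 1 in a fit restricted to a level of 200 (Ppp1r3c, adjusted p = 0.0322, with Pygl, Gys1, Gbe1 and Pygm not tested). Ppp1r3c met that level through its controls alone (mean 102 in lithium and 210 in controls), so that its call there rests on a filter decided by the difference itself. The number became 2 with the term for the array sets, and it was 0 in every fit that left out 1 array, with an adjusted p of 0.0645 to 0.142 for Pygl and 0.098 to 0.244 for Ppp1r3c. Of the further genes, the number higher, 1, became 2 after adding 16, with array weights (Phkg2 both times) and with averaged probe sets (Gsk3b). At a level of 200 it was 1 but another gene, Phkg2 (adjusted p = 0.0488), with Nhlrc1 not tested. It was 0 with the replicate block, within arrays 1 and 2 and within arrays 3 and 4. Leaving out 1 array gave 0 to 1. The number lower, 0, became 1 (Ppp1r3b) with the term for the array sets.

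At a level of 200 only the probe sets reaching it were tested, and 685 of those were called, a count out of fewer tests. Over the whole array the 1050 probe sets called became 1735 after adding 16 and 2834 with the term for the array sets. They became 1396 under quantile normalization, 1121 under median centring and 1360 with a trended and robust variance. Calls over the whole array thus also rose in these fits, in each of which Pygl newly passed. With array weights they rose to 1217, and 0 of the 8 glycogen genes passed as lower. The probe sets called became 0 within arrays 1 and 2, 0 within arrays 3 and 4, and 169 to 617 when 1 array was left out. With the replicate block they became 124, and among the named glycogen genes the block changed the call of Nhlrc1 alone. Signs changed only for small differences. Within arrays 1 and 2 Gyg was at -0.0078 and Pygb at -0.067, and within arrays 3 and 4 Gys1 was at 0.0025. When 1 array was left out, Gys1 ranged from -0.60 (without lithium array 4) to 0.0017 (without lithium array 2) and Pygb from -0.073 to 0.18. The cause was not tested. Dim probe sets limit what could be seen, since Pygm and the second probe set of Ppp1r3c reached at most 12.2 and 10.3, where the poly-A controls reached up to 5.64.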
